A study of Mus musculus with 12 samples.

Results

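Metallothioneins and zinc transporters were followed in cultured mouse cells in which a long noncoding RNA, lncRNA5251, had been targeted for knockdown or overexpression. The 8 genes are Mt1, Mt2, Mtf1, Slc30a1, Slc30a4, Slc39a6, Slc39a10 and Slc39a14. They were chosen by symbol from a table of 17576 genes, and all 8 had a row and enough signal to be tested among 11435 genes. The cells were C18-4, a line used as a model of mouse spermatogonial stem cells, whose strain the labels give as IRC, grown in DMEM/F12 with serum. The 4 groups had 3 libraries each, 12 in all. In KD, C18-4 cells carried the lentiviral vector LV3 with a mixture of shRNAs against lncRNA5251, and in their control, 3NC, the same vector with a control shRNA. In the group labelled OV, for overexpression, the cells carried the vector LV5 with lncRNA5251 inserted, and in their control, 5NC, the LV5 vector. All groups were virus-treated, stably transfected cells of the same line, so no untreated culture enters a comparison, and no source states that the 3 libraries of a group came from separate cultures. The p-values then measure only the spread between these libraries, which may be technical.

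The level of lncRNA5251 was not analysed here, and the KD label was checked on the RNA that the shRNAs match. Each of the 3 knockdown shRNAs matched the transcripts of 1 gene, Purb, over all 21 bases, and the control shRNA matched none of 141767 GENCODE transcripts. A loss of lncRNA5251 and a loss of Purb RNA can therefore not be told apart in any KD result below. Purb was at 33.6 ± 0.624 RPKM (SD, n = 3) in 3NC, 9.32 ± 0.806 in KD, 27.1 ± 5.30 in OV and 30.7 ± 1.46 in 5NC. It was lower in KD than in 3NC by a log2 fold change of -1.75 (SE 0.097, adjusted p = 1.69e-09 by limma), and the difference between OV and 5NC was -0.19 (adjusted p = 0.176), or -0.34 (adjusted p = 0.00111) without the third OV library. Purb was thus low in KD and was not raised in OV. Only the shRNAs, and not the inserted lncRNA5251, were matched to transcripts, so the Purb level cannot test the label of overexpression. That label was not checked, and OV names the libraries by their label throughout. RPKM is a read number scaled to the length of the gene and to the mapped reads of the library. Its sum over all genes was 533099 to 580920 per library, the number of reads is unknown, and the Spearman correlation between libraries of a group was 0.992 to 0.998 over the genes tested. The third OV library lay farthest from its group mean (root mean square 0.128 on the log2 scale, against 0.0728 to 0.117 in the other 11 libraries), so calls of the 8 genes that change without it are given both ways.

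The cells were also checked against cell type markers. Of 14 spermatogonial markers in the table, 11 were under 1 RPKM in every library, among them Ddx4, Dazl, Gfra1 and Zbtb16, and Nanos2, Kit and Ret were listed at 0 in all 12. Uchl1, Itga6 and Id4 were detected, and the summed level of the list was 79.8 to 89.1 RPKM in 3NC, 68.9 to 76.4 in KD, 111.0 to 128.0 in OV and 95.1 to 99.2 in 5NC. Most of that sum was Uchl1 (73.0 to 82.1 in 3NC and 60.1 to 68.6 in KD), while Itga6 went the other way, with 6.71 to 7.76 in KD, 4.98 to 6.08 in 3NC and 2.81 to 4.07 in OV. Of 7 Sertoli markers, Wt1, Gata4 and Rhox5 were detected while Sox9, Cldn11, Dhh and Amh stayed under 1 RPKM, with a summed level of 57.4 to 65.0 over all libraries. The 4 Leydig markers summed to 0.85 to 2.39. Of 7 peritubular and fibroblast markers, 5 were detected and Myh11 and Col1a2 were under 1 RPKM, and the sum was 334.0 to 348.0 in 3NC, 435.0 to 522.0 in KD, 569.0 to 619.0 in OV and 566.0 to 576.0 in 5NC. Most of that sum was Col1a1 (249.0 to 260.0 in 3NC, 315.0 to 400.0 in KD and 378.0 to 383.0 in 5NC), while Pdgfra was highest in 3NC, at 1.24 to 1.4, against 0.96 to 1.19 in KD and 0.78 to 1.04 in 5NC. The spermatogonial and the peritubular and fibroblast sums differed between groups, and their part in the results was not tested. The Leydig sums overlapped in all groups, as did the Sertoli sums within each vector pair. In such bulk RNA, fewer cells of a type and less RNA per cell cannot be told apart.

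Metallothioneins are small cysteine-rich proteins that bind zinc and copper and, when exposed to it, cadmium. When free zinc rises, the zinc-sensing transcription factor MTF-1, the product of Mtf1, binds metal response elements in the promoters of Mt1, Mt2 and Slc30a1 and raises their transcription. Transporters of the SLC30 (ZnT) family move zinc out of the cytoplasm, into vesicles or out of the cell, and those of the SLC39 (ZIP) family move it into the cytoplasm. Zinc is needed in the testis for the division and maturation of germ cells, and metallothionein is known there as a protection against cadmium.

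The promoters of the 3 best-known MTF-1 targets among these genes are shown because Mt1, Mt2 and Slc30a1 fell together in KD and stood higher in 5NC than in 3NC. Each is the run of 250 bases before the start site in RefSeq on build GRCm38.p6, printed along the plus strand, which is the strand of all 3 genes. Capitals mark matches to the core of the metal response element, searched as TGCACNC and TGCGCNC on both strands, so that a match on the minus strand reads as its reverse complement. The windows are chr8:94178839-94179088 for Mt1, chr8:94172368-94172617 for Mt2 and chr1:191906531-191906780 for Slc30a1.
Mt1: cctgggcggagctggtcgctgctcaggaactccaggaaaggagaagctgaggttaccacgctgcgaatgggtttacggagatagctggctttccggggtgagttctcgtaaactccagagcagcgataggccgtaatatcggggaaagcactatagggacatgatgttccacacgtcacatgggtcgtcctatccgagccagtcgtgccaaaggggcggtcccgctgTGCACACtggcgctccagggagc
Mt2: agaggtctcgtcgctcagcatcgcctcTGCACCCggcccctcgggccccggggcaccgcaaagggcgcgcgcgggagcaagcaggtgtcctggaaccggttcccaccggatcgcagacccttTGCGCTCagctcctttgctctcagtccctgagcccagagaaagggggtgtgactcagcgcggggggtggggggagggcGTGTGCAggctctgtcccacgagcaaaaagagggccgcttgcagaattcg
Slc30a1: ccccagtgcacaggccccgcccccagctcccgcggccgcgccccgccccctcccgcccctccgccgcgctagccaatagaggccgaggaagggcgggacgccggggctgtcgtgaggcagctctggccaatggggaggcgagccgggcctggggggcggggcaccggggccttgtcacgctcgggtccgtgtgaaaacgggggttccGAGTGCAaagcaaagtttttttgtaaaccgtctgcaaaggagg

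Mt2 had 3 matches, at 223, 128 and 50 bases before the start. Mt1 had 1 match 23 bases before the start, and Slc30a1 had 1 match on the minus strand 43 bases before it. Of all 32851 promoter windows of this length, 21.4% had at least 1 match, 5.17% at least 2 and 1.26% at least 3, so a single match is common. Slc30a4, whose mRNA did not pass the test in any comparison here, had 2 matches, and the windows of Mtf1 and Slc39a10 had 0. GENCODE also places transcript starts of Mt1 122 and 152 bases and of Mt2 46 and 242 bases after the end of these windows, and of Slc30a1 475 bases after it, so bases next to those starts were not searched. Mt2 and Mt1 are neighbours on chromosome 8 on the same strand, with start sites 6471 bases apart. Windows were at hand for 6 of the 8 genes. A match is a description of the letters and not a measured binding site.

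**Figure D1:**
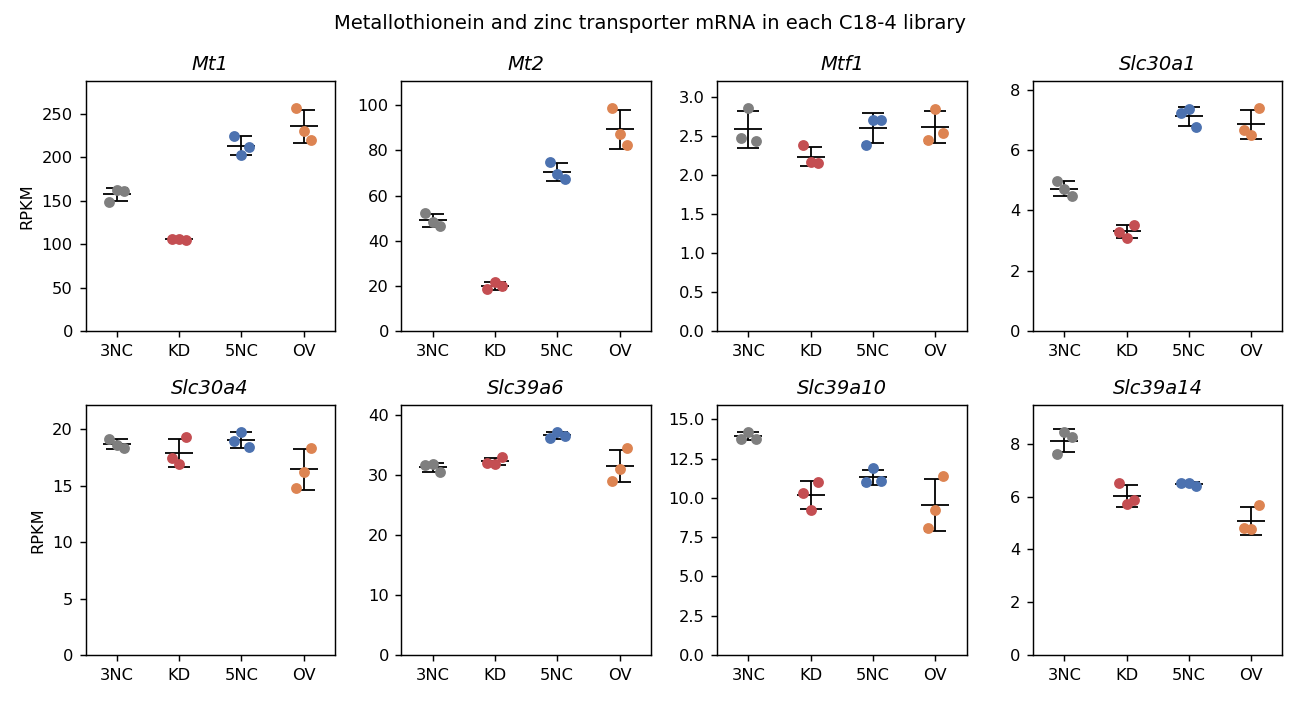
RPKM (vertical axes, from 0) of each of the 8 genes in every library of 3NC, KD, 5NC and OV. Points are libraries, the long bar is the group mean and the whiskers are ± SD (n = 3). Mt1, Mt2 and Slc30a1 are lowest in KD, and their 3 KD libraries lie below every library of the other groups.

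Mt2 had the largest change of the 8 genes in KD against 3NC. It encodes 1 of the major metallothioneins of mouse cells. Its level was 52.11, 48.41 and 46.61 RPKM in 3NC and 18.54, 21.98 and 19.84 RPKM in KD. Every KD library was below every 3NC library. The fall was 2.44-fold on the means, from 49.0 ± 2.80 to 20.1 ± 1.74 RPKM (SD, n = 3). On the scale of the test, log2(RPKM + 1), which understates changes of low genes, the difference was -1.25 (SE 0.073, adjusted p = 3.27e-09 by limma with Benjamini-Hochberg adjustment over all genes tested). A gene is said to have passed the test, to have risen or to have fallen where the adjusted p did not exceed 0.05. The study threshold, which asks for 0.001 and for a log2 fold change of 1 or more in size, was set by the study for another test on read numbers (DEGseq) and is applied here to the limma values. It was met by Mt2 and by 1.57% of all genes tested in KD against 3NC. Mt2 had the 65th lowest log2 fold change of the 11435 genes.

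In the vectors of the other pair, Mt2 was higher. It measured 74.69, 69.58 and 67.17 RPKM in 5NC and 98.82, 87.04 and 82.21 RPKM in OV. All OV libraries were above all 5NC libraries, and all 5NC libraries were above all 3NC libraries. Mt2 rose in the libraries labelled OV against 5NC by 0.34 on the log2 scale (SE 0.073, adjusted p = 0.00705), a ratio of 1.27 between the means. It also stood 0.51 higher in 5NC than in 3NC (SE 0.073, adjusted p = 2.76e-05), so the control groups differed by a ratio of 1.44. The order of the means was KD, 3NC, 5NC, OV, and each step between neighbours passed the test. Against 5NC the KD libraries were 3.5-fold lower (log2 fold change -1.76, SE 0.073, adjusted p = 4.61e-11).

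Mt1, the other major metallothionein of mouse cells, was the most abundant of the 8 mRNAs, with a mean of 178.0 RPKM over the 12 libraries, rank 456 of 17576 genes. It measured 148.55, 161.91 and 161.01 RPKM in 3NC against 105.84, 106.24 and 104.74 RPKM in KD. The KD libraries lay close together and below every 3NC library. Mt1 fell in KD by 0.57 on the log2 scale (SE 0.057, adjusted p = 9.57e-07), from 157 ± 7.47 to 106 ± 0.777 RPKM (SD, n = 3). The fall did not meet the study threshold.

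In 5NC, Mt1 measured 224.74, 202.79 and 212.04 RPKM, above all libraries of 3NC (log2 fold change 0.44, SE 0.057, adjusted p = 1.2e-05). In OV it measured 256.51, 229.46 and 220.08 RPKM, and the lowest OV library lay below the highest 5NC library. The difference of 0.14 between OV and 5NC (SE 0.057) did not pass the test (adjusted p = 0.089). Without the third OV library it was 0.19 with an adjusted p of 0.0174, and with the libraries centred on their medians 0.18 with 0.042, so this call depends on a library and on the scaling. Over all 13 alternative fits the difference was 0.052 to 0.19, and 2 of them passed. The order of the means was KD, 3NC, 5NC, OV, as for Mt2, with 5NC and OV not told apart. Against 5NC, Mt1 was lower in KD by a log2 fold change of -1.01 (SE 0.057, adjusted p = 1.19e-09), which met the study threshold.

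The balance of Mt1 and Mt2 was read as a ratio. The ratio of Mt2 to Mt1 in RPKM was 0.313 ± 0.033 (SD, n = 3) in 3NC, 0.19 ± 0.0159 in KD, 0.379 ± 0.00585 in OV and 0.331 ± 0.0132 in 5NC. The highest KD ratio, 0.207, was below the lowest ratio of 3NC, 0.289. The OV ratios, 0.374 to 0.385, were above the 5NC ratios, 0.317 to 0.343. The log2 difference between Mt2 and Mt1 changed by -0.68 in KD against 3NC and by 0.19 in OV against 5NC (exact two-sided permutation p = 0.1 for each, adjusted p = 0.133 over 4 comparisons). The 5NC ratios lay within the range of 3NC (0.289 to 0.351), and that difference was 0.077 (exact permutation p = 0.5). No comparison of the ratio passed. With 3 against 3 libraries 0.1 is the smallest p this test can give. Mt1 and Mt2 have related sequences. The methods give the options of the mapping but not how reads shared between genes were counted, so the ratio is uncertain to that extent.

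Mtf1, which encodes the zinc sensor, was the least abundant of the 8 genes, with a mean of 2.51 RPKM. It measured 2.47, 2.86 and 2.43 RPKM in 3NC and 2.38, 2.17 and 2.16 RPKM in KD. The groups did not overlap, but the gap was small, and the difference of -0.15 on the log2 scale (SE 0.078) did not pass the test (adjusted p = 0.124). After quantile normalization it was -0.23 with an adjusted p of 0.0224, the only pass in 13 alternative fits. With 1 library left out it was -0.18 to -0.093. Mtf1 measured 2.38, 2.71 and 2.71 RPKM in 5NC and 2.45, 2.84 and 2.54 RPKM in OV, and these groups overlapped with each other and with 3NC. The log2 fold changes were 0.0039 in OV against 5NC (adjusted p = 0.978) and 0.006 in 5NC against 3NC (adjusted p = 0.954). The mRNA level of the sensor says nothing of its activity, which depends on zinc.

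Slc30a1 encodes ZnT1, the zinc exporter of the plasma membrane. It measured 4.97, 4.71 and 4.47 RPKM in 3NC and 3.30, 3.10 and 3.53 RPKM in KD. All KD libraries were below all 3NC libraries. Slc30a1 fell in KD by 0.41 on the log2 scale (SE 0.07, adjusted p = 0.000164), from 4.72 ± 0.250 to 3.31 ± 0.215 RPKM (SD, n = 3). In 5NC it measured 7.22, 7.37 and 6.75 RPKM and in OV 6.66, 6.50 and 7.40 RPKM, which overlapped. It stood 0.51 higher in 5NC than in 3NC (SE 0.07, adjusted p = 2.13e-05), and OV against 5NC gave -0.048 (SE 0.07, adjusted p = 0.646). Slc30a1 was highest in 5NC, followed by OV, 3NC and KD. The means of the controls differed by a ratio of 1.51, beside a ratio of 0.702 for KD to 3NC, and KD against 5NC gave a log2 fold change of -0.91 (SE 0.07, adjusted p = 2.99e-08).

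Slc30a4 encodes ZnT4, a transporter that loads zinc into intracellular vesicles. Its level was 19.17, 18.60 and 18.34 RPKM in 3NC, 17.45, 16.94 and 19.32 in KD, 14.80, 16.18 and 18.39 in OV and 18.93, 19.81 and 18.40 in 5NC. The KD libraries overlapped with 3NC, and the OV libraries lay just below those of 5NC. The log2 fold changes were -0.062 in KD against 3NC (SE 0.071, adjusted p = 0.477) and -0.2 in OV against 5NC (SE 0.071, adjusted p = 0.0508). Without the third OV library, the highest of its group, the difference in OV was -0.28 with an adjusted p of 0.00347. That was the only pass in 13 alternative fits, and with 1 library left out the difference was -0.28 to -0.13.

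**Figure D2:**
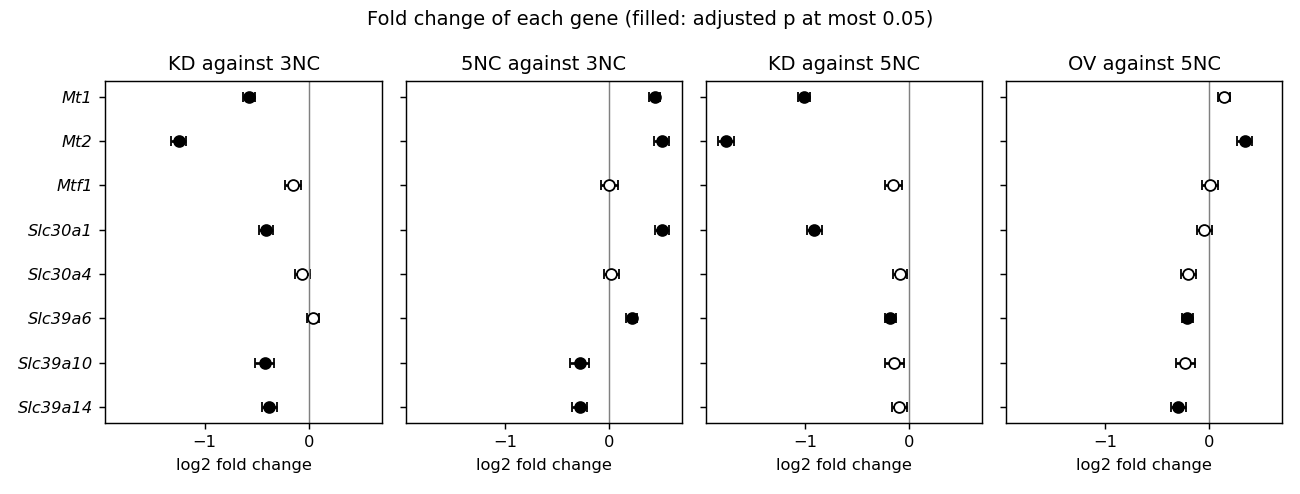
Log2 fold change (horizontal axes) of the 8 genes in 4 comparisons of the groups. Bars are ± standard error from the limma fit on all 12 libraries, and filled points passed the test (adjusted p up to 0.05). The left panel has 5 filled points below 0 and no filled point above it, and Mt2 lies farthest to the left there and in KD against 5NC.

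Of the importers, Slc39a6 encodes ZIP6, a plasma membrane zinc transporter known from cell division and cell migration. It measured 31.71, 31.75 and 30.43 RPKM in 3NC, 31.89, 31.85 and 32.93 in KD, 29.04, 31.00 and 34.39 in OV and 36.17, 37.21 and 36.40 in 5NC. The KD libraries were above those of 3NC by a narrow gap, and the log2 fold change of 0.041 (SE 0.055) did not pass the test (adjusted p = 0.546). Slc39a6 was highest in 5NC, where every library lay above those of the other groups (0.22 against 3NC, SE 0.055, adjusted p = 0.00332). It fell in the libraries labelled OV against 5NC by 0.21 on the log2 scale (SE 0.055, adjusted p = 0.0154). That call was lost without the second 5NC library (adjusted p = 0.0619), without the first or the second OV library (0.074 and 0.0616) and in a fit to the 6 libraries compared (0.0511). In KD against 5NC it was lower by a log2 fold change of -0.18 (SE 0.055, adjusted p = 0.0102), or -0.12 (adjusted p = 0.0687) after quantile normalization.

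Slc39a10 encodes ZIP10, the closest relative of ZIP6, with which it can form a complex. It measured 13.77, 14.22 and 13.77 RPKM in 3NC and 10.30, 9.25 and 10.98 RPKM in KD. All KD libraries were below all 3NC libraries. Slc39a10 fell in KD by 0.42 on the log2 scale (SE 0.091, adjusted p = 0.00122), and the ratio of the means was 0.731. It measured 11.02, 11.87 and 11.04 RPKM in 5NC and was lower there than in 3NC (-0.28, SE 0.091, adjusted p = 0.0174). This difference between the controls did not pass without the second 3NC library (adjusted p = 0.0523) or without the first or the third 5NC library (0.0535 in each case). In OV, Slc39a10 measured 8.06, 9.23 and 11.36 RPKM, and the third library overlapped with 5NC. The difference was -0.23 (SE 0.091, adjusted p = 0.0782), and without that library -0.35 with an adjusted p of 0.00219. That was the only pass in 13 alternative fits, and with 1 library left out the difference was -0.35 to -0.13.

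Slc39a14 encodes ZIP14, which carries zinc and also iron and manganese. Its level was 7.63, 8.47 and 8.26 RPKM in 3NC, 6.50, 5.73 and 5.86 in KD, 4.80, 4.76 and 5.67 in OV and 6.52, 6.53 and 6.42 in 5NC. All libraries of 3NC were above all libraries of the other groups, and all OV libraries were below the rest. Slc39a14 fell in KD against 3NC by 0.38 on the log2 scale (SE 0.072, adjusted p = 0.000445). It also fell in the libraries labelled OV against 5NC by 0.3 (SE 0.072, adjusted p = 0.0107), a call that was lost without the second OV library (adjusted p = 0.0553). It was lower in 5NC than in 3NC by a log2 fold change of -0.28 (SE 0.072, adjusted p = 0.0038), and KD and 5NC overlapped (-0.093, adjusted p = 0.273). The difference between the effects in KD and in OV was -0.071 (SE 0.1, adjusted p = 0.583).

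Counted together, 5 of the 8 genes fell in KD against 3NC (Mt1, Mt2, Slc30a1, Slc39a10 and Slc39a14), 0 rose by limma, also at an unadjusted p under 0.05, and 3 did not pass. Among all genes tested, 23.5% fell and 31.9% rose in this comparison, and the median log2 fold change was -0.39 over the 8 genes and 0.041 over all. These 5 genes passed the test with lower levels in KD in 13 of 13 alternative fits. In the libraries labelled OV against 5NC, 1 gene rose (Mt2), 2 fell (Slc39a6 and Slc39a14) and 5 did not pass, where 8.07% of all genes rose and 13.9% fell. Without the third OV library 2 of the 8 rose and 4 fell, without the second OV library 0 fell, and without the first OV library or the second 5NC library 1 fell. With other scalings the split of all genes changed, from 923 higher and 1595 lower calls to 939 and 950 after quantile normalization and to 1365 and 1022 after median centring. By the study threshold, 0.0% of all genes and 0 of the 8 were called in OV against 5NC.

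The controls were not alike. In 5NC against 3NC, 4 of the 8 genes were higher (Mt1, Mt2, Slc30a1 and Slc39a6), 2 were lower (Slc39a10 and Slc39a14) and 2 did not pass. Of all genes, 31.0% were higher and 25.6% lower, and 2.61% met the study threshold, against 0 of the 8. Vector, insert and culture differ together between the controls and cannot be told apart. KD was therefore also set against 5NC, a comparison that shares its libraries with the others. There 4 genes were lower (Mt1, Mt2, Slc30a1 and Slc39a6), 0 were higher by limma, also at an unadjusted p under 0.05, and 4 did not pass, while 31.4% of all genes were lower, 34.0% higher and 3.55% met the study threshold. Mt1, Mt2 and Slc30a1 were thus lower in KD than in either control group.

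**Figure D3:**
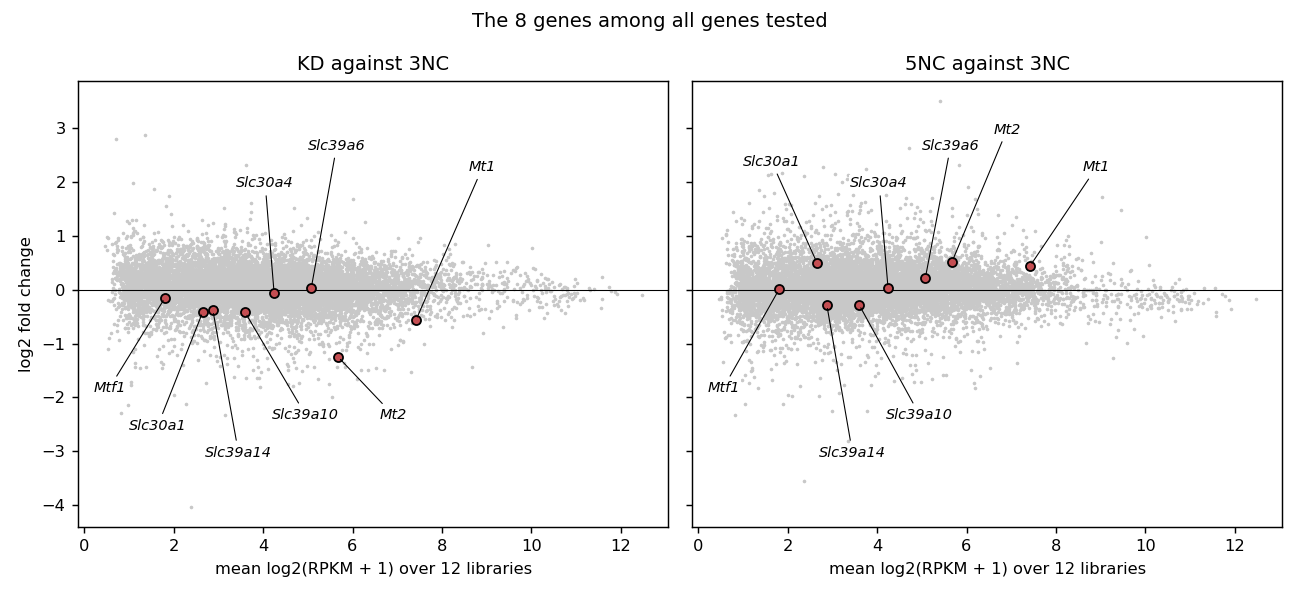
Log2 fold change (vertical axis) against the mean log2(RPKM + 1) over 12 libraries (horizontal axis) for the 11435 genes tested, with the 8 genes marked, in KD against 3NC and in 5NC against 3NC. Mt2 lies at the lower edge of the cloud in KD against 3NC, at -1.25, and above 0 in 5NC against 3NC, at 0.51.

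The effect of KD against its control and that of the libraries labelled OV against theirs were compared directly, as the difference of the log2 fold changes. It was -1.58 for Mt2 (SE 0.1, adjusted p = 2.14e-08), -0.71 for Mt1 (SE 0.081, adjusted p = 5.54e-06) and -0.36 for Slc30a1 (SE 0.099, adjusted p = 0.007). For Slc39a6 it was 0.26 (SE 0.078, adjusted p = 0.0128), its level being lower in OV than in 5NC and not past the test in KD. The remaining 4 genes did not pass. Of these, Slc30a4 passed without the third OV library (0.22 in place of 0.14, adjusted p = 0.0374), Slc39a10 without the first OV library (-0.29 in place of -0.19, adjusted p = 0.0456) and Mtf1 after quantile normalization (-0.33 in place of -0.15, adjusted p = 0.022). Each passed in only 1 of 18 alternative fits. With 1 library left out, the difference nearest to no change was 0.073 for Slc30a4, -0.066 for Slc39a10 and -0.097 for Mtf1. Over all genes 20.7% had a lower and 31.2% a higher effect in KD than in OV, and 2.87% met the study threshold, among them Mt2.

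The other members of the families were counted in the same fit. Of 21 further genes listed, 18 were in the table and 12 were tested. Of these 12, 3 rose and 3 fell in KD against 3NC, close to the shares of all genes, 31.9% and 23.5%, and 5 fell after quantile normalization. Slc39a8, which encodes ZIP8, a carrier of zinc, manganese and cadmium, rose by 0.47 (SE 0.068, adjusted p = 3.81e-05), from 12.4 ± 0.709 to 17.6 ± 1.82 RPKM (SD, n = 3). Slc39a9, the gene of ZIP9, rose by 0.24 (adjusted p = 0.0036). Slc39a1, for ZIP1 of the plasma membrane, fell from 55.4 to 44.5 RPKM (log2 fold change -0.31, adjusted p = 0.000277), and Slc39a7, for ZIP7 of the endoplasmic reticulum, from 96.5 to 78.0 RPKM (-0.31, adjusted p = 0.000318). Slc30a6, for ZnT6 of the secretory pathway, fell by 0.27 (adjusted p = 0.00482). Of 10 tested SLC39 genes, 2 rose, 4 fell and 4 did not pass, and of 7 tested SLC30 genes 1 rose, 2 fell and 4 did not pass. The SLC30 gene that rose was Slc30a9, singled out after its values were seen, and this call was lost without the second or the third 3NC library or the first or the third KD library (adjusted p = 0.0665 to 0.107), and also with no filter on low values (0.0541).

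Some of these further genes also differed between the controls. Slc39a8 stood at 12.4 ± 0.709 RPKM in 3NC and 25.4 ± 1.22 in 5NC (log2 fold change 0.98, SE 0.068, adjusted p = 1.42e-08), with 23.7 ± 0.737 in OV. Slc39a3, for ZIP3, stood at 1.99 ± 0.108 RPKM in 3NC, 1.97 ± 0.294 in KD, 4.92 ± 0.197 in OV and 4.21 ± 0.231 in 5NC, so that both LV5 groups stood above both LV3 groups (5NC against 3NC 0.8, SE 0.08, adjusted p = 7.41e-07). In 5NC against 3NC, 3 of the 12 were higher, 2 lower and 7 did not pass, where 31.0% of all genes were higher and 25.6% lower. In OV against 5NC, Slc39a7 (0.2, adjusted p = 0.0211) and Slc39a11 (0.15, adjusted p = 0.0433) rose and 0 fell by limma, with 3 lower at an unadjusted p under 0.05, where 8.07% of all genes rose and 13.9% fell. The call of Slc39a7 was lost without the second or the third 5NC library or the first or the second OV library (adjusted p = 0.0661 to 0.0911) and after quantile normalization (0.0675). That of Slc39a11 was lost without any 5NC library or without the first or the second OV library (0.053 to 0.16) and in a fit to the 6 libraries compared (0.0883). Without the third OV library 3 of the 12 were lower. In KD against 5NC, 2 were higher and 5 lower, beside 34.0% and 31.4% of all genes, with 1 higher when the first or the third KD library or the third 5NC library was left out. The remaining 6 genes in the table were not tested, since none passed 0.29 RPKM in any library, and Slc30a10, for a manganese exporter, was listed at 0 in all 12. Mt3, Mt4 and Slc30a8 were not analysed here.

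**Figure D4:**
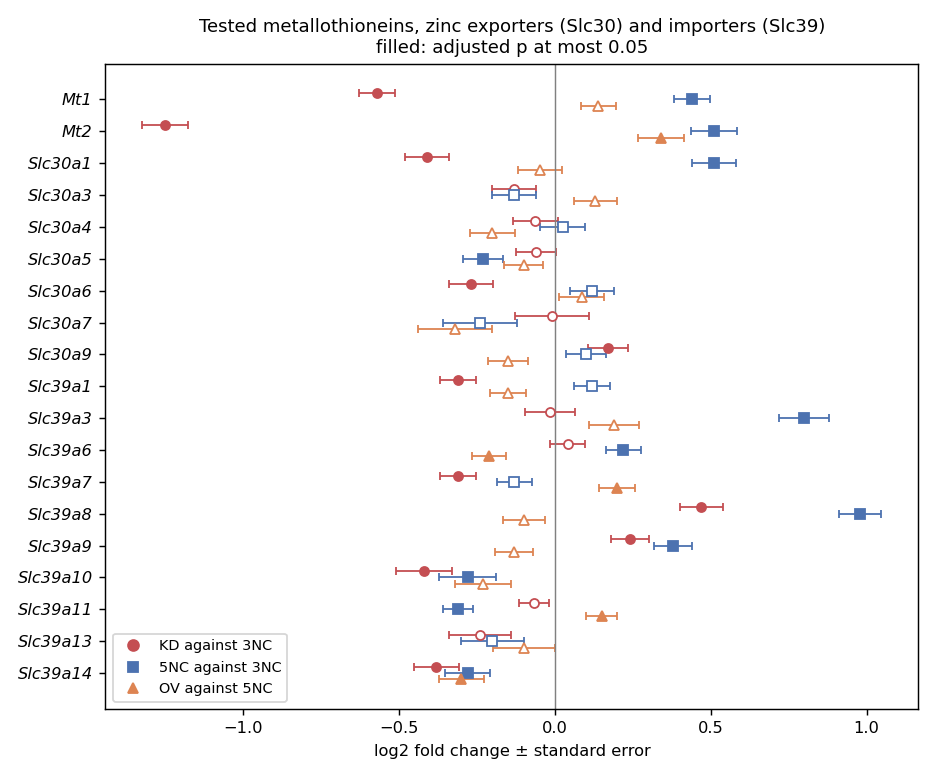
Log2 fold change ± standard error (horizontal axis) of the 19 tested metallothionein, SLC30 and SLC39 genes in KD against 3NC (circles), 5NC against 3NC (squares) and OV against 5NC (triangles), from the limma fit with n = 3 libraries a group. Filled symbols passed the test (adjusted p up to 0.05), and the metallothioneins hold the lowest KD values while Slc39a8 has the highest value in 5NC against 3NC.

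Genes that respond to metals and heat, several of which are induced by zinc or cadmium along with metallothioneins, were also read. Metal is not the only inducer of the genes on this list, and what moved them here was not tested. Of 10 tested, 9 fell and 1 rose in KD against 3NC, with 6 past the study threshold and a median of -1.01, beside 23.5% lower, 31.9% higher and 1.57% past that threshold among all genes and a median of 0.041. The rise was lost without any 3NC library and without the first or the second KD library. Hmox1, for the heme-degrading enzyme heme oxygenase 1, fell from 110.0 ± 2.0 to 38.7 ± 1.32 RPKM (log2 fold change -1.49, SE 0.05, adjusted p = 1.49e-11). Slc7a11, for the cystine importer, fell by 1.15 (adjusted p = 5.97e-08) and the heat shock gene Hspa1b by 1.02 (adjusted p = 2.98e-08). Unlike Mt1 and Mt2, most of this list was also lower in 5NC than in 3NC, 8 of 10, and 2 were higher, where 25.6% of all genes were lower and 31.0% higher. Srxn1, for sulfiredoxin, was 27.0 ± 0.48 RPKM in 3NC, 12.8 ± 0.222 in KD, 12.7 ± 0.263 in OV and 11.6 ± 0.835 in 5NC. In OV against 5NC, 3 rose and 2 fell, or 1 when the second 5NC library or the first or the second OV library was left out, where 8.07% of all genes rose and 13.9% fell.

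Other metals were represented by short lists, whose counts in KD against 3NC stand beside 31.9% of all genes higher and 23.5% lower. Of 13 tested iron genes, 7 fell and 2 rose in KD against 3NC. Tfrc, for the transferrin receptor that takes up iron, fell from 43.5 ± 1.55 to 17.5 ± 1.34 RPKM (log2 fold change -1.27, SE 0.085, adjusted p = 1.35e-08), and it was also low in 5NC (22.9 ± 0.759) and OV (20.5 ± 3.32). Of 9 tested copper genes, 2 rose, 1 fell and 6 did not pass. The copper genes that rose were Commd1 (0.44, adjusted p = 3.48e-05) and Cox17 (0.32, adjusted p = 0.00334), and Sco2, which helps copper into cytochrome oxidase, fell by 0.9 (SE 0.14, adjusted p = 8.13e-05). In KD against 5NC, 6 of the 9 copper genes were higher and 3 lower, beside 34.0% and 31.4% of all genes. The copper count thus depends on the control. Glucocorticoids also induce metallothioneins, and of 9 tested glucocorticoid-responsive genes 2 rose, 4 fell and 3 did not pass in KD against 3NC, with 1 rise when any 3NC library or the first or the third KD library was left out. Tsc22d3, a widely used readout of glucocorticoid action, rose by 0.65 (adjusted p = 4.05e-06). Cebpd fell by 0.75 (adjusted p = 1.51e-05) and Sgk1 by 0.64 (adjusted p = 1.88e-05).

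Across the 12 libraries, the profiles most like that of Mt1 were those of Gar1, Rab8a, Ddx55, Dph1 and Rab35, with a root mean square difference of 0.064 to 0.083 between mean-centred log2 profiles. Slc30a1 was 117th by this measure (0.15), and Mt2 2545th (0.37). The measure counts the size of the changes as well as their order. Around its own mean, the profile had a root mean square of 0.45 for Mt1 and 0.8 for Mt2. Mt1 and Mt2 shared the order of their group means, so this rank does not show that they varied apart. The profiles most like that of Mt2 were those of Trmt61a, Myc, Mid1ip1, Ppp1r14b and Armc6 (0.12 to 0.2), with Mt1 94th (0.37) and Slc30a1 271st (0.46). Myc, for example, stood at 23.4 RPKM in 3NC, 7.63 in KD, 41.8 in OV and 34.2 in 5NC. These likenesses are descriptions over 12 libraries of 4 groups and share the group differences given above.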

How the data were processed

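The authors deposited RPKM values of 17576 genes in 12 libraries (4 groups, 3 each), and the groups came from the sample labels. According to the methods, mRNA bound to oligo(dT) beads was sequenced (Illumina), mapped to reference genes with SOAPaligner and scaled to RPKM. The labels name total RNA, and the supplementary heading on C18-4 cells names lncRNA8276, so the labels were followed for lncRNA5251. The genome build is not given in the sources used here, and depth in reads is unknown. RPKM keeps any library bias by gene length or GC content.

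The 11435 genes that reached 1 RPKM in 3 or more libraries were tested on log2(RPKM + 1). All libraries entered 1 fit with a group term and an intensity trend (limma 3.58.1, R 4.3.3), with Benjamini-Hochberg adjustment. The test was checked on simulated data. Promoter windows came from RefSeq (GRCm38.p6), and figures from matplotlib 3.10.9. The genes named were the 8 genes, at most 5 passing family genes a comparison, at most 3 passing genes of each other list and the 5 profiles nearest to Mt1 and to Mt2. The 8 genes and all lists were chosen with earlier results of these data known. Alternatives were a pseudocount of 0.1, no filter, quantile normalization, median centring, no trend, a fit to the compared libraries, the study threshold, a replicate block and each library left out.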

Additional observations from a re-analysis of the deposited data

How the results depend on the processing

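Over the alternatives, 542 of 560 single values of the 8 genes kept their side of the threshold, and 0 that passed the test in either fit changed direction. Signs did change among small differences that passed in neither, those of Mtf1 and Slc30a1 in OV against 5NC and of Mtf1 and Slc30a4 in 5NC against 3NC. Of 840 values of the further family genes, 783 kept theirs, and of 858 values of Purb and the genes named from other lists, 837 kept theirs. By the study threshold, 1 of the 8 genes was lower in KD against 3NC, 2 in KD against 5NC and 1 in the difference of effects, with 0 for all other counts of the 8 genes and of the 12 further family genes. After quantile normalization, 5 further genes were lower in KD against 3NC and 1 in OV against 5NC. With median centring, 2 of the 8 were higher in OV against 5NC. In the fit to the compared libraries, 1 of the 8 was lower and 1 further gene higher in OV against 5NC, and 5 further genes were lower in 5NC against 3NC. The replicate numbers did not pair the libraries (r -0.178 to 0.354 between same-numbered libraries, over 0.1 in 5 of 18 pairs, and 6 of 12 libraries closest to their own number), and with a replicate block 1 further gene was higher in OV against 5NC, with all other counts of the 8 and of the further genes within 1.5 times.

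With each library left out in turn, 1 to 2 of the 8 were higher and 0 to 4 lower in OV against 5NC, 1 to 2 were lower in 5NC against 3NC and 1 to 2 were higher in the difference of effects. Of the further genes, 0 to 2 were higher and 0 to 3 lower in OV against 5NC, 1 to 2 were higher in KD against 5NC and 2 to 5 lower in the difference of effects. The counts of all genes called in the same fits are not set beside these counts, which are therefore not read as results about the 8 genes. The cause of these changes was not tested. Without reads behind the RPKM, the precision of low genes such as Mtf1 cannot be set.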
